A study of Mus musculus with 6 samples.

Results

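A set of 10 cardiac muscle genes (Myh6, Myl4, Myl7, Tnnt2, Tnni3, Tnnc1, Actc1, Ryr2, Sln and Mybpc3) was followed in the mouse lung. They were chosen by name, and all 10 are among the 47069 genes of the count table. Part of the study asked how a deletion at Zpbp2 alters the lung transcriptome. At ZT10, the tenth hour after lights on, RNA was sequenced from lungs of 3 wild-type mice, named WT4, WT5 and WT6. Lungs of 3 knockout mice, named KO4, KO5 and KO6, were sequenced beside them. The study also sequenced lungs at an earlier time point, which is outside the samples read here. Its list for that time had Ryr2, Casq2, Corin, Myl2 and Bmp10 lower in KO mice. Its list for ZT10 held none of the 10 members. WT mice were adult C57BL/6J mice, and KO mice were adults of the same background that lack exons 1 to 3 of Zpbp2 in every cell. Both groups came from 1 colony, exact ages and the sex of each mouse are not given in the sources used here, and each library came from 1 mouse. Zpbp2 had 1, 2 and 2 reads in the WT mice and 0 in each KO mouse, all at or under a floor of 3 counts, so the targeted gene gave no check of the labels at this depth.

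In the mouse, a sleeve of atrial-type cardiac muscle surrounds the pulmonary veins and follows them into the lung, so that RNA of heart muscle is regularly found in lung tissue. The contractile unit of this muscle, the sarcomere, is built from thick filaments of myosin and thin filaments of actin, troponin and tropomyosin. Contraction starts when calcium leaves the sarcoplasmic reticulum through the ryanodine receptor, and ends when a calcium pump takes it back. Cardiomyocytes of the atrium and of the pulmonary vein use their own light chains (Myl7 and Myl4) and the pump regulator sarcolipin (Sln). Those of the ventricle use Myl2 and Myl3, and regulate the pump mainly by phospholamban (Pln).

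Promoter sequences of 9 members are held in the RefSeq table for GRCm38.p6, as 10 windows since Tnnt2 has 2 starts. The 250 bases before each annotated start were searched on both strands. The CArG box is bound by serum response factor, and the MEF2 site by the myocyte enhancer factors, both regulators of muscle genes. The 3 promoters with one of these sites are shown, with the matched site in capitals. The other members searched had neither site in these 250 bases. A link between such sites and the levels of the members, described below, was not tested.
Myl7, chr11:5898783-5899032, minus strand, CArG box: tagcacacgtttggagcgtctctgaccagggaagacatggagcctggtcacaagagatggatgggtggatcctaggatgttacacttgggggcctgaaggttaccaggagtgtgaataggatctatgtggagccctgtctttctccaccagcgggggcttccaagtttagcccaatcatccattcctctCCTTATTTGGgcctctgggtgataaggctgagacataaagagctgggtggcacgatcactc
Actc1, chr2:114052876-114053125, minus strand, CArG box: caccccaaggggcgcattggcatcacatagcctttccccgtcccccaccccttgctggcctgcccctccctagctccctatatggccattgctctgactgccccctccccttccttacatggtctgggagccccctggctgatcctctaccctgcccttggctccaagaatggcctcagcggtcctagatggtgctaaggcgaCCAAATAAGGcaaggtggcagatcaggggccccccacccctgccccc
Mybpc3, chr2:91117894-91118143, plus strand, MEF2 site: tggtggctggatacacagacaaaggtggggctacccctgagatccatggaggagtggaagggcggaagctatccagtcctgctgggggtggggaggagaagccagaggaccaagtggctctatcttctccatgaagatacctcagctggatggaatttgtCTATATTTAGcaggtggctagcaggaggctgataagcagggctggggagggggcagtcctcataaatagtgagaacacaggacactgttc
The match began 61 bases before the start of Myl7, 47 bases before that of Actc1 and 90 bases before that of Mybpc3, and none of the 3 overlapped another searched motif. A CArG box lay in 2 of the 10 member windows and in 1.47% of 32851 windows of all genes, and a MEF2 site in 1 of the 10 and in 2.92% of all windows. GATAA, the core of GATA factor sites, lay in windows of 3 members (Mybpc3, Myl7 and Tnnt2) and in 22.6% of all windows. CATTCC, the core of TEAD factor sites, lay in windows of 4 members (Myh6, Myl7, Tnnc1 and Tnnt2) and in 12.6% of all windows. GGTGTG, the core of T-box sites, was found for 1 member (Tnni3), against 16.3% of all windows. TATAAA was found for 0 members, against 12.4% of all windows.

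Gene counts summed to between 19981428 and 46796908 in a mouse, of which a member gene had between 97 and 12267. Levels are given in CPM, read counts brought to a common library size after scaling by the TMM method. The labelled tissue was checked by 10 genes of lung epithelium and endothelium, such as Sftpc, Ager and Pecam1. Their summed level lay between 37337 and 57589 CPM, of which the airway gene Scgb1a1 made up between 19547 and 33010 CPM. By edgeR 1 of the 10 was called (Cldn5, lower in KO mice), against 6.39% of all genes tested. A log2 fold change above 0 was found for 0 of the 10. In the edgeR test 5 had an unadjusted p under 0.05 (against 25.5% of all genes), and the groups did not overlap for 5 (against 32.6%). The 4 Y-linked genes examined had at most 9 counts in any mouse. Xist, the X-linked RNA of female cells, had between 15033 (WT5) and 47369 (KO5) counts, so each library read as female. KO5 stood apart from the other mice in skeletal muscle and B cell genes, whose values are given beside the results.

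The cardiac muscle genes moved as a block from mouse to mouse, and the KO mice lay on both sides of the WT mice. Their summed level was 739, 1302 and 535 CPM in WT4, WT5 and WT6 and 320.3, 203.3 and 1459 CPM in KO4, KO5 and KO6. The highest and the lowest mouse were therefore both KO mice, 7.17-fold apart. WT5 and KO6 held the highest values of all 10 members, KO6 in 8 and WT5 in 2, whereas KO5 was lowest and KO4 next to lowest in all 10. Over all 17037 genes tested, 1.31% had WT5 and KO6 on top and KO4 and KO5 at the bottom, an order chosen for counting after the values were seen. In these whole-lung samples, fewer muscle cells and less RNA per cell cannot be told apart.

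**Figure D1:**
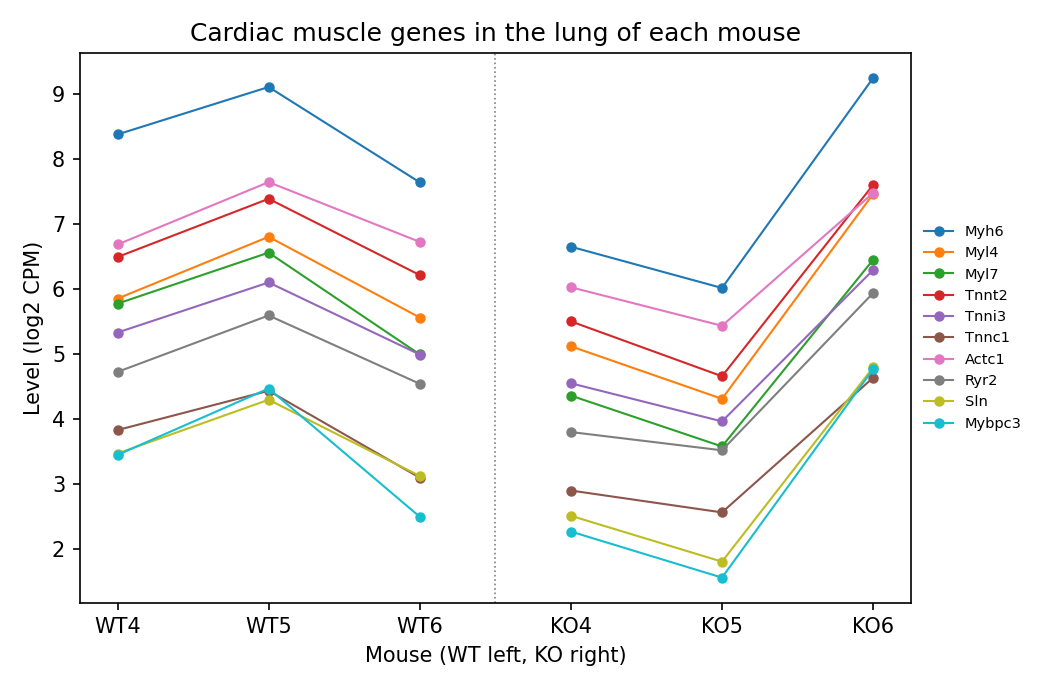
Level of each of the 10 cardiac muscle genes (y axis, log2 CPM) in each mouse (x axis), with 1 colour per gene. Lines only link the values of 1 gene within a group. All genes peak in WT5 and KO6 and are lowest in KO5, so that both the highest and the lowest levels of most genes belong to KO mice.

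Among the thick filament genes, Myh6 encodes the alpha heavy chain, the main cardiac myosin motor of the adult mouse. It measured 332, 550.3 and 199 CPM in WT4, WT5 and WT6 and 100.2, 64.5 and 606 CPM in KO4, KO5 and KO6. The KO values lay on both sides of the WT values, and KO6 exceeded KO5 by 9.39-fold. The log2 fold change of KO against WT was -0.49 (standard error 0.816), with a 95% interval from -2.41 to 1.43. The quasi-likelihood test of edgeR, adjusted over all genes tested by the Benjamini-Hochberg method, gave an adjusted p of 0.755.

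The light chains stabilise the myosin neck. Myl7, the atrial regulatory light chain, measured 54.6, 94.1 and 31.7 CPM in the WT mice and 20.4, 11.9 and 87.2 CPM in KO4, KO5 and KO6. Myl4, the atrial essential light chain, measured 57.6, 111.4 and 47.1 CPM in the WT mice and 34.6, 19.7 and 175.7 CPM in KO4, KO5 and KO6. The groups overlapped for both, although KO4 and KO5 lay below all 3 WT mice. Myl7 had the lowest log2 fold change of the members, -0.61 (standard error 0.734, edgeR adjusted p = 0.651). Myl4 had the highest, 0.08 (standard error 0.773, edgeR adjusted p = 0.966), and was the single member above 0. Mybpc3, the cardiac myosin-binding protein C that tunes the speed of contraction, measured 10.8, 22.0 and 5.56 CPM in the WT mice and 4.74, 2.87 and 27.1 CPM in KO4, KO5 and KO6. Its 9.43-fold span over the 6 mice was the widest of the members.

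The thin filament genes had a narrower span. Actc1, cardiac alpha-actin, measured 102.6, 199.5 and 105.5 CPM in WT4, WT5 and WT6 and 65.0, 43.1 and 177.7 CPM in KO4, KO5 and KO6. Its log2 fold change was -0.52 (standard error 0.523), with a 95% interval from -1.75 to 0.71, and its edgeR adjusted p of 0.585 was the lowest of the 10. The 3 troponin subunits switch the thin filament on. Tnnt2, which anchors the complex to tropomyosin, measured 89.8, 167.1 and 74.0 CPM in the WT mice and 45.2, 25.1 and 193.8 CPM in KO4, KO5 and KO6. Tnni3, the inhibitory subunit, measured 40.1, 68.4 and 31.7 CPM in the WT mice and 23.3, 15.5 and 78.2 CPM in KO4, KO5 and KO6. Tnnc1, the calcium-binding subunit that slow skeletal muscle also uses, measured 14.1, 21.5 and 8.47 CPM in the WT mice and 7.38, 5.83 and 24.7 CPM in KO4, KO5 and KO6. The highest and lowest mice were 7.71-fold apart for Tnnt2, 5.04-fold for Tnni3 and 4.24-fold for Tnnc1, and the groups overlapped for each.

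Both members of the calcium cycle followed the same course. Ryr2, the cardiac ryanodine receptor, measured 26.3, 48.1 and 23.2 CPM in the WT mice and 13.8, 11.4 and 61.1 CPM in KO4, KO5 and KO6. Sln, which inhibits the calcium pump in atrial muscle, measured 10.99, 19.6 and 8.64 CPM in the WT mice and 5.62, 3.42 and 27.6 CPM in KO4, KO5 and KO6. Sln spanned 8.07-fold and Ryr2 5.38-fold, with KO6 highest and KO5 lowest in each. Their log2 fold changes were -0.11 and -0.19, with standard errors of 0.744 and 0.644.

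Of the 10 members, 0 were called at an adjusted p of at most 0.05 and 0 had an unadjusted p under 0.05 in the edgeR test, against 6.39% called (3.72% higher and 2.67% lower in KO mice) and 25.5% with an unadjusted p under 0.05 among all genes tested. DESeq2 and edgeR's exact test also called 0 members. With the log2 fold change of at least 1.5 that the study added to its threshold, 0.64% of all genes passed. The log2 fold change was below 0 in 9 of the 10, with a median of -0.25 against 0.0030 over all genes tested. The exact permutation test of 3 mice against 3, two-sided, gave p of at least 0.4 for each member, where 0.1 is the smallest p that this design allows. The spread between mice of a group was wide for these genes. The within-group SD of log2 CPM lay between 0.84 and 1.38, at percentiles 97.8 to 99.4 of all genes tested, with a median of 1.17 against 0.13 over all genes. Every one of the 10 intervals of 95% held the log2 differences from -1.59 to 0.71, and a p above the threshold does not show that the genotypes had equal levels.

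Single mice set the direction. Without KO6 the median log2 fold change of the members was -1.48, and all 10 members had an unadjusted p under 0.05. The adjusted p then lay between 0.0740 (Myh6, log2 fold change -2.13) and 0.160 (Mybpc3, -1.77) in the edgeR test, so that 0 were called. Without WT5 or without KO5 the median was 0.13 in each case, and without KO4 it was 0.0048. Leaving out WT4 gave -0.35 and leaving out WT6 gave -0.52. In every one of these fits 0 members were called, but the number of genes called over the whole table also moved, from 1089 to 254 without WT4, 1 without WT5, 63 without WT6 and 117 without KO6.

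**Figure D2:**
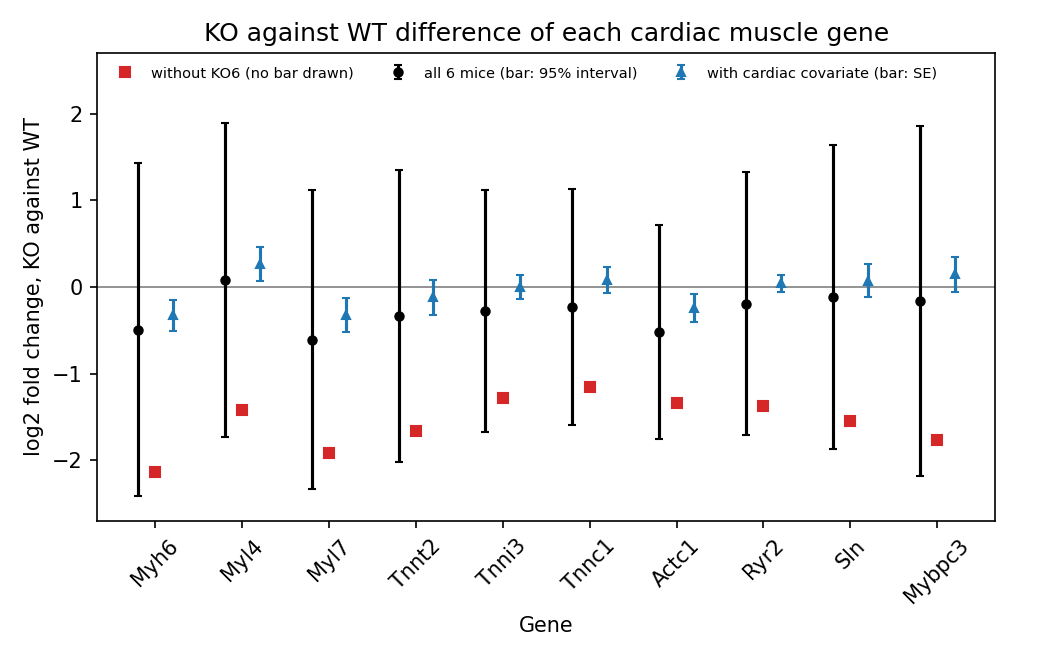
Log2 fold change of KO against WT mice (y axis) for each gene (x axis), for all 6 mice with the 95% interval, without KO6, and with the mean level of other cardiac genes as a covariate with the standard error. Intervals from all 6 mice cross 0 for each gene, the values without KO6 lie between -2.13 and -1.16, and the values with the covariate lie between -0.33 and 0.26.

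Dividing by Myh6 within a mouse narrowed the spread of each of the other 9 members, to different extents. These ratios of counts do not depend on library scaling. The log2 ratio of Myl7 to Myh6 was -2.60, -2.55 and -2.65 in WT4, WT5 and WT6 and -2.29, -2.44 and -2.80 in KO4, KO5 and KO6, a range of 0.50 where the level of Myl7 itself ranged over 2.99 on the log2 scale. Over the 9 ratios the range was between 0.50 (Myl7) and 1.21 (Tnnc1), and over the levels of the same 9 genes it was between 2.08 (Tnnc1) and 3.24 (Mybpc3).

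Relative to Myh6, the mean of each of the other 9 members was higher in KO mice, by 0.09 (Myl7) to 0.65 (Tnnc1) on the log2 scale. For Myl4 the log2 ratio was -2.53, -2.30 and -2.08 in WT4, WT5 and WT6 and -1.53, -1.71 and -1.79 in KO4, KO5 and KO6, a 1.55-fold higher mean ratio in KO mice. Sln had ratios of -4.92, -4.81 and -4.53 in WT4, WT5 and WT6 against -4.16, -4.24 and -4.46 in KO4, KO5 and KO6. For Mybpc3 the WT mice had ratios of -4.94, -4.64 and -5.16, against -4.40, -4.49 and -4.48 in KO4, KO5 and KO6. Each KO mouse, KO6 included, lay above each WT mouse for these 3 genes, whereas the groups overlapped for the other 6. Among 17012 genes tested with counts in every mouse, 1.14% had ratios to Myh6 that did not overlap. For a gene that does not vary with Myh6 this ratio mirrors Myh6 itself, whose groups overlap, so this share is not a measure for genes that vary with Myh6. The exact permutation p was 0.1 for Myl4, Sln and Mybpc3, the smallest the design allows, or 0.3 after Benjamini-Hochberg adjustment over the 9 ratios. The 9 ratios share the counts of Myh6 and so are not independent. Of all 50-base windows of the Myh6 transcript, 22.6% also occur in another gene, mostly in Myh7, the beta heavy chain gene that lies beside it, so counts of Myh6 can depend on how shared reads were treated.

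**Figure D3:**
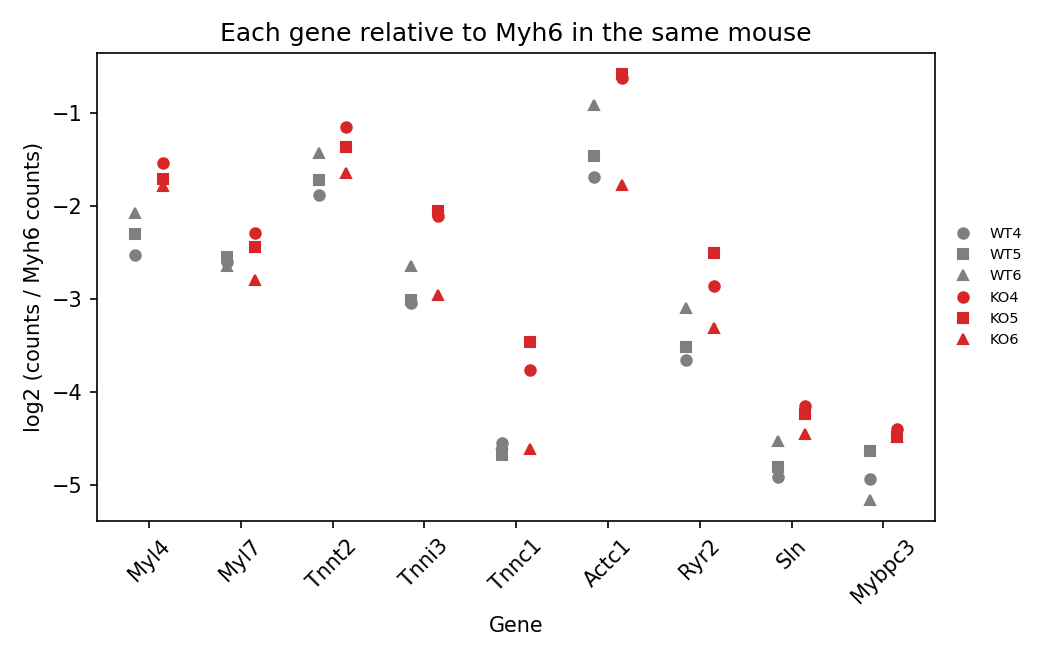
Log2 ratio of each gene's counts to those of Myh6 in the same mouse (y axis) for 9 genes (x axis), with WT mice in grey and KO mice in red and 1 marker shape per replicate number. The ratios of Myl4, Sln and Mybpc3 lie higher in all 3 KO mice than in the 3 WT mice, and those of the other 6 genes overlap.

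A fit in which the mean level of 40 other sarcomere and calcium genes entered as a covariate narrowed the standard errors of the members from 0.52 to 0.86 down to 0.10 to 0.20. This covariate was chosen after the values were seen. The log2 fold change of KO against WT was then -0.33 for Myh6 (standard error 0.178, adjusted p = 0.351), -0.32 for Myl7 (standard error 0.197, adjusted p = 0.405) and 0.26 for Myl4 (standard error 0.191, adjusted p = 0.480) in the edgeR test. In this fit 0 members were called, against 1.54% of all genes.

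Compared per kilobase of annotated exons, the members differed widely in level. Myl7 had the highest mean over the 6 mice, 84.7 CPM per kb, followed by Actc1 with 71.4 and Myh6 with 45.9. Tnni3 (20.8), Myl4 (16.0), Tnnc1 (13.1), Tnnt2 (12.8) and Sln (9.59) formed the middle, and Mybpc3 (2.93) and Ryr2 (1.06) were lowest in CPM per kb. The ranges of neighbours in this order overlap, Actc1 exceeded Myl7 in WT6, KO4 and KO5, and Myl7 alone ran from 20.1 CPM per kb in KO5 to 159.4 in WT5. This scale sets a gene low where its annotated exons together are longer than the transcript that its reads come from. The exons of Tnnt2 sum to 7752 bases and those of Myl4 to 4637 bases. Their longest protein-coding transcripts have 1200 and 943 bases.

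The light chains found were mainly those of the atrium and the pulmonary vein. Myl2, the ventricular regulatory light chain that slow skeletal muscle also uses, had 0, 0 and 1 reads in the WT mice and 3, 97 and 0 reads in KO4, KO5 and KO6. Myl2 was thus at or under the floor of 3 counts in 5 mice, among them WT5 and KO6 where Myl7 was highest, and measured 1.04 CPM per kb in KO5, where Myl7 measured 20.1. Irx4, a transcription factor of the ventricle, had 0 counts in all 6 mice. Myl3, the ventricular essential light chain, measured 1.34 CPM per kb on average against 16.0 for Myl4. Myh7 measured 2.68 CPM per kb on average and stayed between 4.35 and 4.79 log2 CPM in all mice while Myh6 spanned 9.39-fold, and it shares exonic bases with antisense transcripts (Mhrt among them), whose reads cannot be separated where the strand setting of the counting is unknown. Pln, which the atrium also expresses, followed the members, with 3.12 and 2.36 log2 CPM in KO4 and KO5 and 5.37 and 5.73 in WT5 and KO6. Sln and Pln had mean levels of 9.59 and 9.05 CPM per kb.

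Genes enriched in atrial over ventricular muscle were also read. Of 11 such genes other than the members, 8 were tested and 0 were called by edgeR (against 6.39% of all genes). Of the 8, 1 (Dkk3) had an unadjusted p under 0.05 (against 25.5%). The order of the members was shown by 4 of the 8 (Kcnj3, Nppa, Sbk2 and Sbk3) and not by Dkk3, Gja5, Kcna5 and Tbx5. Nppa, which encodes the atrial natriuretic peptide, had 159, 671 and 114 reads in the WT mice and 57, 5 and 623 reads in KO4, KO5 and KO6. It followed the order of the members with a wider span, and its log2 fold change was -0.35 (standard error 1.44, edgeR adjusted p = 0.914). Bmp10, a growth factor of the right atrium, had at most 6 reads in any mouse. These counts do not separate the muscle sleeve of the pulmonary vein from the muscle of the left atrium, which express the same genes.

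Of 79 further genes of cardiac muscle, 74 were expressed highly enough to be tested, and 1 was called (against 6.39% of all genes), lower in KO mice (against 2.67% in that direction). The gene was Tbx3, a T-box factor of the conduction system that lung mesenchyme also expresses, with 7.69, 7.82 and 7.58 log2 CPM in the WT mice and 6.78, 7.18 and 7.27 in KO4, KO5 and KO6. The log2 difference of -0.61 (standard error 0.130) passed the edgeR test with an adjusted p of 0.0423, and Tbx3 did not share the high level of the members in KO6. The call was lost when WT4, WT5, WT6 or KO6 was left out, which gave 0 calls among these genes in each case. The median log2 fold change over the 74 genes was -0.16, and 7 of them had an unadjusted p under 0.05 (against 25.5% of all genes).

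The order of the mice seen in the members was shared by 34 of the 74 genes (45.9%). It was found in 21 of 28 other sarcomere genes, against 1.31% of all genes tested. Of the 28, 0 were called by edgeR (against 6.39%) and 2 had an unadjusted p under 0.05 (against 25.5%). Csrp3, a Z-disc protein that senses stretch, measured 3.77, 4.61 and 3.05 log2 CPM in the WT mice and 2.41, 1.56 and 4.77 in KO4, KO5 and KO6. Ttn, the giant spring of the sarcomere, measured 48.5, 90.6 and 40.6 CPM in the WT mice and 21.7, 36.2 and 111.5 CPM in KO4, KO5 and KO6, and KO5 was not its lowest mouse. The same order held for 4 of 12 calcium genes, 5 of 10 energy genes and 3 of 14 channel and coupling genes. Among transcription factors it held for 1 of 10. By edgeR 0 genes of the calcium, energy and channel lists were called (against 6.39% of all genes). In these 3 lists 1, 0 and 1 had an unadjusted p under 0.05 (against 25.5%). Kcnj3, a subunit of the acetylcholine-gated potassium channel of the atrium, measured 2.45, 3.30 and 1.94 log2 CPM in the WT mice and 0.67, -0.31 and 3.87 in KO4, KO5 and KO6. Tbx20, a T-box factor of the heart, measured 1.51, 2.53 and 0.96 log2 CPM in the WT mice and 0.00, -0.35 and 2.47 in KO4, KO5 and KO6.

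The 15 genes whose log2 CPM was most like the mean of the members were, in order, Slc17a7, Csrp3, Mybphl, Casq2, Synpo2l, Wnk2, Fhl2, Pln, Sbk3, Atp2a2, Corin, Mylk3, Dhrs7c, Kcnj3 and Myom2. They were drawn from 1482 genes with at least 0.5 of the SD of the members' mean, by Pearson's r over the 6 mice, which was at least 0.991 for each and at least 0.977 without KO5 and KO6. Their Spearman's rho was 1 for 13 of the 15. These values chose the genes and are a description of 6 points. Casq2 stores calcium in the sarcoplasmic reticulum, Atp2a2 is the calcium pump, Mybphl is a myosin-binding protein of the atrium, Corin processes the atrial natriuretic peptide, and Slc17a7 is a vesicular glutamate transporter. Slc17a7 had 1.57, 2.58 and 1.06 log2 CPM in the WT mice and 0.07, -0.85 and 2.94 in KO4, KO5 and KO6. Among the 100 genes most like the members, 30 were in the lists of cardiac genes and 0 in the skeletal muscle list. How many genes of each list were among the 1482 was not counted, so these counts have no share beside them. The smooth muscle list could not be judged in this way, since smooth muscle genes with a small SD, such as Acta2, were left out before the ranking.

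Skeletal muscle genes did not show the order of the cardiac genes in any of the 13 tested, against 1.31% of all genes tested. Over the 13 tested of 22 skeletal muscle genes, the summed level was 19.2, 24.0 and 20.8 CPM in the WT mice. It was 19.4, 116.7 and 27.2 CPM in KO4, KO5 and KO6. By edgeR 0 of the 13 were called (against 6.39% of all genes) and 2 had an unadjusted p under 0.05 (against 25.5%). The expression filter had left out genes read almost only in KO5, such as Myh2 (17.9 CPM there) and Tnnc2 (11.5 CPM). The sum and these counts do not cover them. Acta1, the skeletal alpha-actin, had 11, 17 and 40 reads in the WT mice and 2, 1394 and 7 reads in KO4, KO5 and KO6, and the fast heavy chain Myh1 had 1075 reads in KO5 and at most 10 in any other mouse. KO5, the mouse with the lowest cardiac levels, thus had the highest level of skeletal muscle genes. Their part in the levels of Tnnc1, Actc1 and Ttn in KO5, genes that skeletal muscle can also use, was not tested.

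Smooth muscle genes, which encode the contractile proteins of airway and vessel walls, had a summed level of 1158, 1514 and 1252 CPM in the WT mice and 1119, 969 and 1152 CPM in KO4, KO5 and KO6. WT5 was highest and KO5 lowest, as in the sum of the cardiac genes apart from KO6, which did not share the high level it had there. WT5 and KO6 were on top and KO4 and KO5 at the bottom for 1 of these 12 genes, against 1.31% of all genes tested. By edgeR 0 were called (against 6.39%) and 6 had an unadjusted p under 0.05 (against 25.5%). The summed levels of the groups were set apart only narrowly, by 1158 CPM in WT4 and 1152 CPM in KO6. With each gene centred on its mean over the 6 mice, the list means overlapped, with -0.057 in WT4 and -0.048 in KO6. The groups did not overlap for 4 of the 12 genes, against 32.6% of all genes tested. The part of smooth muscle genes in the cardiac results was not tested. Genes of B cells had a summed level of 133, 128 and 137 CPM in the WT mice and 234, 1012 and 284 CPM in KO4, KO5 and KO6. All 8 B cell genes had groups that did not overlap, against 32.6% of all genes tested. By edgeR 0 were called (against 6.39%), although all 8 had an unadjusted p under 0.05 (against 25.5%). The part of B cell genes in the cardiac results was not tested.

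**Figure D4:**
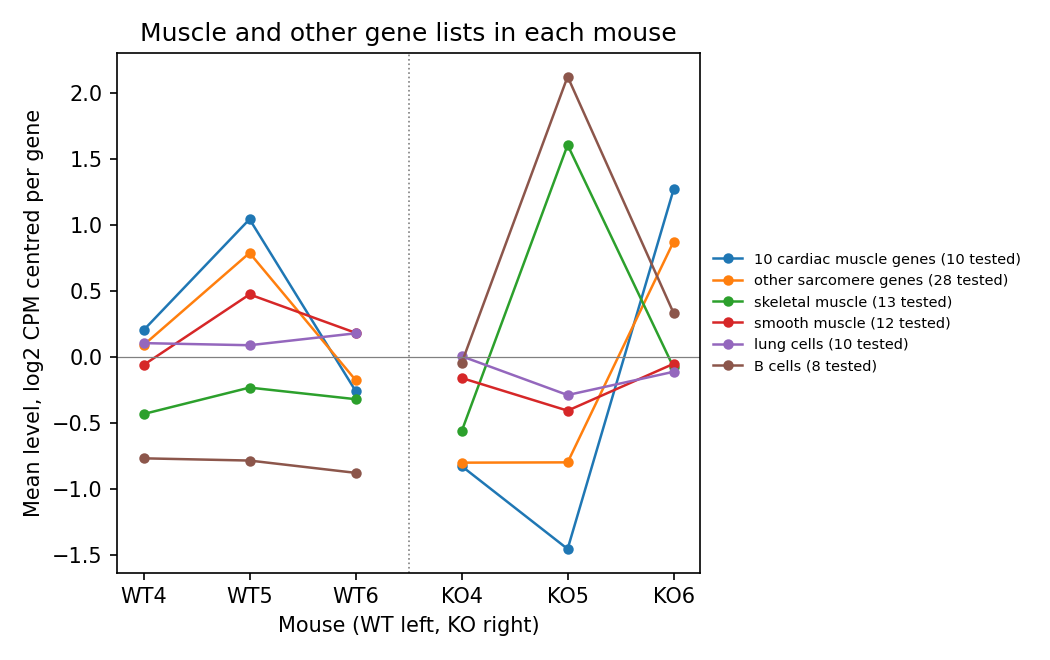
Mean level of 6 gene lists (y axis, log2 CPM with each gene centred on its mean over the 6 mice) in each mouse (x axis). Lines only link the values of 1 list within a group. The cardiac lists peak in WT5 and KO6, whereas skeletal muscle and B cell genes peak in KO5. The lung list stays between -0.28 and 0.18 and is higher in each WT mouse than in any KO mouse.

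The members lie on 7 chromosomes of GRCm38 by GENCODE release M21, and most stand alone in the exons that were counted. Myh6 (ENSMUSG00000040752) lies on chromosome 14 from 54941921 to 54966927 on the minus strand. Myl7 (ENSMUSG00000020469) and Myl4 (ENSMUSG00000061086) lie on chromosome 11, the chromosome of Zpbp2, from 5896637 to 5898782 and from 104550663 to 104595753. Actc1 (ENSMUSG00000068614) and Mybpc3 (ENSMUSG00000002100) lie on chromosome 2, from 114047282 to 114053548 and from 91118144 to 91136516. Exonic bases were shared with another gene by Myh6 (114 bases, antisense Gm49130), Tnni3 (86 bases, Dnaaf3 on the same strand) and Myl4 (3 bases, antisense Gm22000). Apart from Myh6, at most 0.0775% of the 50-base windows of a member's transcript occurred in another gene.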

How the data were processed

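RNA from the lungs of 3 WT and 3 KO mice at ZT10 had been prepared by the authors as stranded mRNA libraries. The submitters' processing notes give the build GRCm38 and list Trimmomatic 0.36, STAR 2.5.3a, Picard 2.9.0 and HTSeq 0.6.0. The deposited values are whole read counts per gene without normalization. The strand setting and the annotation release are not given in the sources used here.

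KO and WT mice were compared in R 4.3.3 with edgeR 4.0.16 (quasi-likelihood test, TMM, default filterByExpr with a minimum count of 10, Benjamini-Hochberg adjustment over 17037 genes). The test was also run on simulated counts in which genes varied independently. That run does not check the test for genes that move together from mouse to mouse, as the members did. A gene was called at an adjusted p of at most 0.05. The standard error is the size of the log2 fold change divided by the square root of F. A 3-count floor equals between 0.0629 and 0.148 CPM, for counting error only. Alternatives were DESeq2 1.42.0, edgeR's exact test, other size factors and filters, a replicate block, each mouse left out, and a covariate. Positions and exon lengths came from GENCODE M21, which placed 46488 genes. Python 3.11.15 and SciPy 1.17.1 made the tables.

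Genes named were the members, the genes of the lists, Zpbp2 and the 15 genes most like the members. Members and lists were chosen with earlier results of these data known.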

Additional observations from a re-analysis of the deposited data

How the results depend on the processing

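The count of 0 called members held under each alternative fitted. Over all genes, 1089 called and 109 also past the fold threshold became 1913 and 169 with DESeq2, 66 and 14 with the replicate number as a block, and 263 and 44 with the cardiac covariate, and the count past both was 211 without a filter and 203 with edgeR's exact test. With 1 mouse left out they ranged from 1 to 1278 and from 1 to 214. The 1 call among 74 other cardiac genes became 2 without a filter, 4 with DESeq2, 3 with the exact test and 0 with the block, and 0 to 1 with a mouse left out. The members' median log2 fold change was -0.66 with the block and 0.018 with the covariate, against -0.25, and ranged from -1.48 to 0.13 with a mouse left out. In the same fits Myh6 ranged from -2.13 to -0.034, Myl7 from -1.92 to -0.13, Actc1 from -1.34 to -0.14, Myl4 from -1.42 to 0.55, Tnnt2 from -1.66 to 0.11, Tnni3 from -1.28 to 0.12, Tnnc1 from -1.16 to 0.15, Ryr2 from -1.37 to 0.21, Sln from -1.55 to 0.35 and Mybpc3 from -1.77 to 0.48. With the covariate, chosen after seeing the data, the sign turned for Tnnc1 (0.080), Ryr2 (0.041), Sln (0.072) and Mybpc3 (0.15), and with the replicate block for Myl4 (-0.47). For mice of the same number, the deviations from the group means had correlations of -0.03, -0.15 and -0.02 across genes. Pairs of different number had correlations from -0.23 (WT4 and KO6) to 0.26 (WT5 and KO6). With 3 mice in a group, these correlations cannot show whether mice of the same number shared a batch. The cause of these changes was not tested.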

Other observations

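Fat and mesothelium, tissues that lie beside the pulmonary vein at the lung root, were read from 9 and 6 marker genes. The summed level of the 8 fat genes tested was 69.6, 116.8 and 79.6 CPM in the WT mice and 68.6, 127.1 and 90.6 CPM in KO4, KO5 and KO6, and that of the 6 mesothelial genes was 409, 251 and 342 CPM in the WT mice and 290.3, 309 and 263 CPM in KO4, KO5 and KO6. In neither list did a gene show the order of the mice seen in the cardiac muscle genes, against 1.31% of all genes tested. With so few genes, a count of 0 does not set a list apart from all genes. By edgeR's quasi-likelihood test 0 genes of either were called at an adjusted p of at most 0.05 (against 6.39% of all genes). In this test 1 fat gene and 0 mesothelial genes had an unadjusted p under 0.05 (against 25.5%). The 6 genes listed for vein endothelium summed to 1229, 1204 and 1115 CPM in the WT mice and 1513, 1047 and 1182 CPM in KO4, KO5 and KO6. The order of the cardiac muscle genes was shown by 0 of these 6, to which the same limit applies. By the same test 1 was called, higher in KO mice (against 3.72% of all genes in that direction), and 3 had an unadjusted p under 0.05 (against 25.5%). Isl1 had 27 counts in KO5 and at most 2 in any other mouse, and Nkx2-5, a core factor of cardiac muscle, had 11, 16 and 1 counts in the WT mice and 0, 3 and 10 in KO4, KO5 and KO6.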
